A study of Mus musculus with 4 samples.

Results

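The complement system was followed in RANKL-treated BMMs through 8 genes, chosen by name from the 34745 genes of the count table: C1qa, C1qb and C1qc, C3, Cfb and Cfp, and the receptor genes C3ar1 and C5ar1. BMMs are macrophages grown from mouse bone marrow with M-CSF, and RANKL is the cytokine that turns them into bone-resorbing osteoclasts. The cells came from wild-type male C57BL/6 mice 8 weeks old. After 12 h in medium lacking FBS, complete medium with RANKL (100 ng/mL) was given for 24 h. It held dimethyl itaconate (DI) or DMSO as vehicle. DI is a membrane-permeable derivative of the macrophage metabolite itaconate. The study states that DI may not act exactly as the cell's own itaconate does. Each condition, RANKL+DI and RANKL+Veh, had 2 libraries, so RANKL was present throughout and no untreated cells serve as a control. The labels give DI as 20 mM, while the methods of the study give 20 μM. No source says whether the libraries of a group came from separate mice or cultures, so the p-values measure only the spread between these libraries.

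Complement is a cascade of proteins that tags microbes, dying cells and immune complexes for uptake. C1q binds such surfaces and starts the classical pathway, C3 is the component on which all pathways meet, and factor B and properdin drive the alternative pathway that amplifies the cleavage of C3. The small fragments C3a and C5a are released on the way and act on G protein-coupled receptors of myeloid cells. The liver supplies most complement proteins of the blood, while macrophages are known as a main source of C1q and are among the cells that make properdin.

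The genes were first placed by level per length, in FPKM as deposited, which scale counts by gene length and by the total of the library. C1qb, the B chain of C1q, stood highest with a mean of 382 ± 4.95 FPKM (SD over the 4 libraries) and ranked 72 among the 12590 genes tested. C3ar1 followed with 234 ± 5.40 FPKM and C1qa with 212 ± 19.1 FPKM, and the ranges of these neighbours overlapped over the 4 libraries and within the vehicle group. Cfp had 155 ± 13.9 FPKM and C1qc 138 ± 6.60 FPKM, again with overlapping ranges over all libraries and within the DI group. C5ar1 was at 75.0 ± 4.49 FPKM, and C3 was at 33.0 ± 14.8 FPKM, the largest spread relative to the mean among the 8 genes. Cfb came last with 0.324 ± 0.0875 FPKM, below which lay only 8.67% of the tested genes. It shares 79.5% of its exonic bases with another gene model, so this level and its place are uncertain. Apart from the pairs C3ar1 with C1qa and Cfp with C1qc, no neighbours in this order overlapped.

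**Figure D1:**
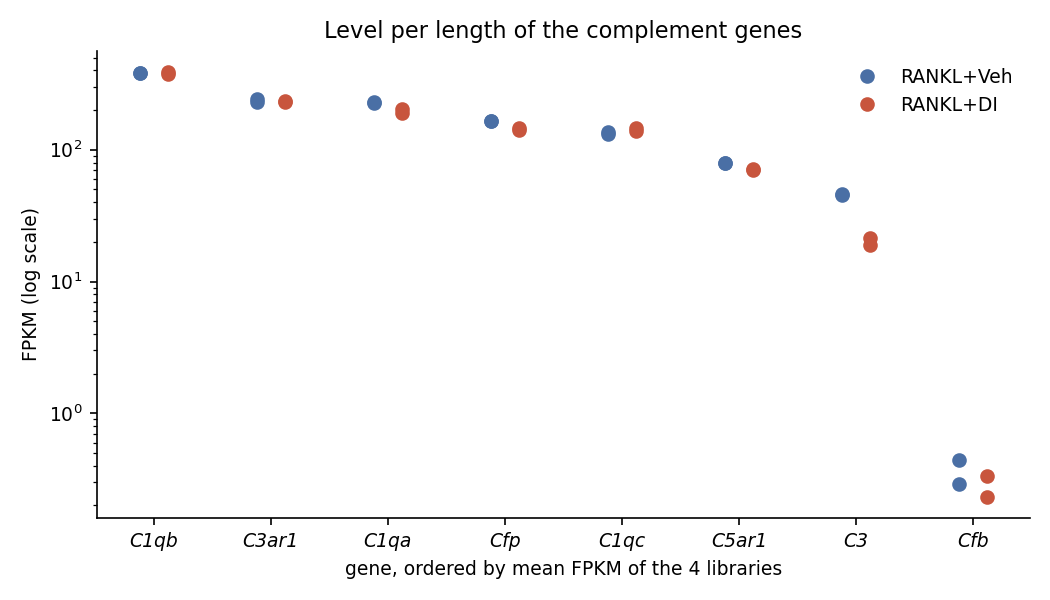
FPKM of the 8 complement genes in each library, on a log axis, ordered by the mean of the 4 libraries (blue, RANKL+Veh; red, RANKL+DI; 1 point per library). C1qb lies between 377 and 389 in all libraries, C3 is split into 19.1 and 21.4 with DI against 45.5 and 46.1 with vehicle, and Cfb lies below 1.

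Next, DI was compared with vehicle to see which of these genes respond to DI during RANKL treatment. C3 fell with DI, C1qc rose slightly, and the other 6 genes did not pass the test. Levels are given in CPM, counts brought to a common library total with TMM factors, and a gene was called at an adjusted p under 0.05 in edgeR's quasi-likelihood test over all genes. In the same fit 14.8% of all tested genes were called, 7.14% higher and 7.7% lower with DI, so 2 calls among 8 genes say nothing particular about complement genes as a group. The groups did not overlap in CPM for 7 of the 8 genes, against 58.6% of all tested genes. The median log2 fold change was -0.079 over the 8 genes and 0.0012 over all genes tested. The scaling bears on these small differences. With library size only, which moved the median of all tested genes to -0.10 and their split from 899 higher and 969 lower to 549 higher and 1930 lower, 4 of the 8 genes were called, all lower.

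C3, the protein cleaved by all complement pathways, was the gene with the largest response. The gene (ENSMUSG00000024164) lies on chromosome 17 from 57203970 to 57228136 on the minus strand (GRCm38). The DI libraries held 2167 and 2102 counts of it and the vehicle libraries 4646 and 4209. Its level was 126 and 112 CPM with DI and 249 and 253 CPM with vehicle. Both DI libraries thus lay well below both vehicle libraries. C3 was 2.11-fold lower with DI, with 119 ± 9.996 against 251 ± 2.32 CPM (SD, n = 2 each). On the log2 scale this was a change of -1.08 (95% interval -1.23 to -0.92, standard error 0.064) with an adjusted p of 6.44e-04 in edgeR's quasi-likelihood test. C3 was lower and called under each of the 13 alternative settings run, among them a test against an absolute log2 fold change of 0.5 (glmTreat, adjusted p = 0.00560). In FPKM, the ratio of C3 to Cfp within a library was 0.153 and 0.131 with DI and 0.273 and 0.277 with vehicle, a measure in which the scaling of the library cancels. In bulk RNA, fewer cells that express a gene and less RNA per cell cannot be told apart.

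Fibroblasts also make C3, and their markers were read beside it. The 6 stromal markers summed to 41.3 to 43.1 CPM with DI and 44.1 to 51.3 CPM with vehicle, Lepr had no count, and none of the 5 that were tested passed. Osteoclast markers fell with DI in 5 of 6 tested genes, where 7.7% of all tested genes fell, and Calcr had no count. Their summed level was 169 to 181 CPM with DI against 297 to 311 CPM with vehicle. The part of either cell population in the C3 result was not tested.

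The promoter sequences of the genes that were called are shown because factors listed further on are known to act at such promoters. They come from RefSeq's annotation of GRCm38.p6, which had an entry for 6 of the 8 genes (not for C1qa and Cfb). Given are the 250 bases before the transcription start, 5′ to 3′ on the gene's own strand, with matches to the motifs searched in capitals. The C3 promoter lies at chr17:57228137-57228386 (minus strand) and the C1qc promoter at chr4:136892915-136893164 (minus strand). As deposited, the C1qc gene spans 136889804 to 136893065, so part of its window lies inside the gene.
C3: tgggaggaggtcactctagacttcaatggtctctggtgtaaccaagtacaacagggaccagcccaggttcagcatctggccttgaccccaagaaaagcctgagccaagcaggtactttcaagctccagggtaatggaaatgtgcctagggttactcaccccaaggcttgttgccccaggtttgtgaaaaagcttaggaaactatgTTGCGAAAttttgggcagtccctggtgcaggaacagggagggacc
C1qc: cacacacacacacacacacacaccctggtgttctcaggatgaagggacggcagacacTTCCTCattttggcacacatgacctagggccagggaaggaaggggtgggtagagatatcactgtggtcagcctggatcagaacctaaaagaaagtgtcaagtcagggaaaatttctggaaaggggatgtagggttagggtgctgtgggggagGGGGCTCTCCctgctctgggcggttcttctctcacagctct

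The window searched ran from 250 bases before to 50 after the start on both strands. The motifs were GAAANNGAA (the core of the ISRE, bound by IRF factors), TGACNNNGC (the core of the antioxidant response element, bound by NRF2), GAGGAA (the core of PU.1 sites), TTGCNNAA (C/EBP) and the NF-kB site. Matches of GAAANNGAA and GAGGAA can overlap each other. The C3 promoter held 1 match, a C/EBP motif at position -45 counted from the start, and 10.8% of the 32851 promoters of the table held this motif. The C1qc promoter held an NF-kB motif at -41, found in 4.5% of all promoters, and a PU.1 core at -193, found in 28.3%. Among the 6 promoters, 3 held the PU.1 core (C1qb, C1qc and Cfp), against the 28.3% of all promoters. The antioxidant response element core was in 2 (C1qb and Cfp, against 12.4% of all promoters) and the ISRE core in 1 (C5ar1, against 8.6%). With 6 promoters these counts are too few to be set against the shares. The NF-kB motif of C1qc, the ISRE core of C5ar1 and the PU.1 cores of Cfp lie inside the spans of these genes as deposited. These matches describe the letters of the window and are no evidence of binding.

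The genes of the C1q chains sit side by side on chromosome 4, on the minus strand and within 18675 bases, with 3616 bases between C1qb and C1qc and 2851 between C1qc and C1qa. Their products are joined in equal numbers into the C1q molecule. C1qc (ENSMUSG00000036896, 136889804 to 136893065) was at 308 and 327 CPM with DI and 272 and 282 CPM with vehicle, without overlap. It rose by a log2 fold change of 0.20 (standard error 0.046, 95% interval 0.084 to 0.309, adjusted p = 0.0399, edgeR's quasi-likelihood test). The call was lost without RANKL+DI replicate 2, RANKL+Veh replicate 1 or RANKL+Veh replicate 2, where the log2 fold change was 0.16, 0.17 and 0.22, and also with library size only, where it was 0.093 (adjusted p = 0.219, edgeR). Over the 12 alternatives other than glmTreat, C1qc was called in 8, with adjusted p between 0.0177 and 0.219.

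The other chains did not pass. C1qb (ENSMUSG00000036905, 136880129 to 136886187) was at 427 and 438 CPM with DI and 402 and 399.6 CPM with vehicle. The difference was 0.11 on the log2 scale (95% interval 0.021 to 0.197, standard error 0.036) with an adjusted p of 0.102 (edgeR). It stood higher in both DI libraries on the TMM scale and was at 0.0059 with library size only. C1qa (ENSMUSG00000036887, 136895917 to 136898803) was at 218 and 204 CPM with DI and 232 and 225 CPM with vehicle, lower in both DI libraries. The difference was -0.11 on the log2 scale (95% interval -0.23 to 0.0056, standard error 0.048) with an adjusted p of 0.183 (edgeR), and with library size only it was -0.22 and passed (adjusted p = 0.0271). The intervals are those of single genes and are not adjusted for the number of genes tested.

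Ratios of the chains within a library do not depend on how libraries are scaled. The ratio of C1qc to C1qa in FPKM was 0.683 and 0.774 with DI and 0.569 and 0.606 with vehicle. The ratio of C1qb to C1qa was 1.87 and 2.05 with DI and 1.66 and 1.70 with vehicle. Both ratios were thus higher in each DI library than in each vehicle library. The ratio of C1qc to C1qb moved less, from 0.343 and 0.357 with vehicle to 0.366 and 0.378 with DI. No test is given for these ratios, since an exact two-sided permutation test of 2 against 2 libraries cannot go below p = 0.333.

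**Figure D2:**
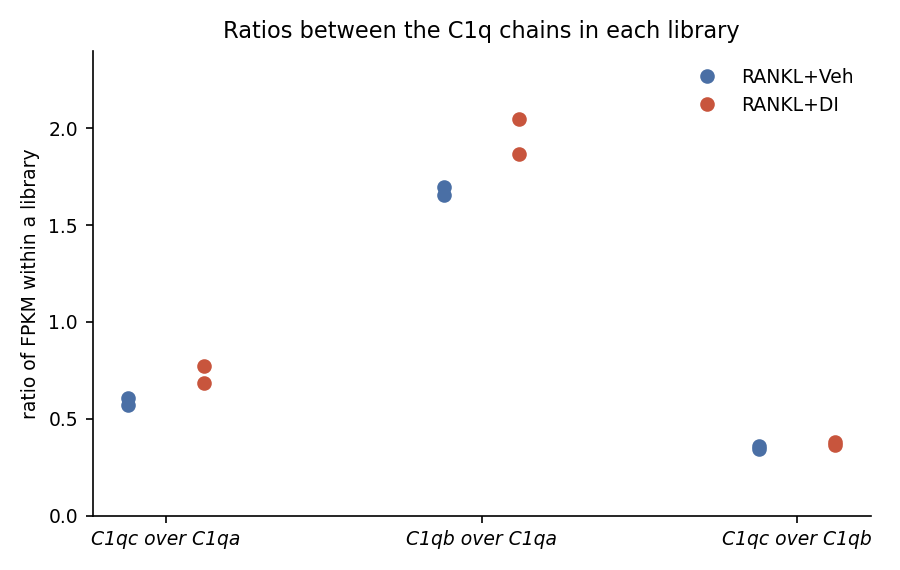
Ratio of the FPKM of C1q chains within each library (blue, RANKL+Veh; red, RANKL+DI; 1 point per library). C1qb over C1qa is 1.66 and 1.70 with vehicle and 1.87 and 2.05 with DI, C1qc over C1qa is 0.569 and 0.606 against 0.683 and 0.774, and the groups lie close together for C1qc over C1qb.

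Of the alternative pathway, Cfp was well expressed and Cfb was low. Cfp (ENSMUSG00000001128, chromosome X from 20925454 to 20931555, minus strand) encodes properdin, which stabilises the C3 convertase. It was at 297 and 306 CPM with DI and 327 and 328 CPM with vehicle, lower in both DI libraries. On the log2 scale DI differed from vehicle by -0.12 (95% interval -0.212 to -0.026, standard error 0.038) with an adjusted p of 0.0946 (edgeR). It passed with library size only (-0.22, adjusted p = 0.0128) and under none of the other alternatives. Cfb (ENSMUSG00000090231, chromosome 17 from 34856374 to 34862518, minus strand) encodes the protease of that convertase. The DI libraries held 20 and 31 counts of it and the vehicle libraries 25 and 34, or 1.16 and 1.65 against 1.34 and 2.04 CPM, and the groups overlapped. The difference was -0.25 on the log2 scale (adjusted p = 0.689, standard error 0.35, edgeR), and the 95% interval of -1.10 to 0.60 allows DI over vehicle ratios from 0.468 to 1.52. Without RANKL+Veh replicate 2 the log2 fold change was 0.077. Over 79.5% of its exonic bases Cfb is shared with the read-through gene Gm20547, which had 0.75 counts per library on average, so its counts are uncertain. Cfd, the gene of the protease that activates factor B, had no count in any library, where 3 counts would be 0.16 to 0.18 CPM. This floor covers counting error only, while the intervals of log2 fold changes also carry the spread between libraries.

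The anaphylatoxin receptors were abundant and differed little between the groups on the TMM scale. C3ar1 (ENSMUSG00000040552, chromosome 6 from 122847138 to 122856161, minus strand), the receptor of C3a, was at 1049.8 and 1031 CPM with DI and 948 and 1001 CPM with vehicle. DI and vehicle differed by 0.094 on the log2 scale (95% interval -0.0016 to 0.19, standard error 0.039) with an adjusted p of 0.172 (edgeR), and with library size only it was -0.0092. C5ar1 (ENSMUSG00000049130, chromosome 7 from 16246743 to 16259540, minus strand), the receptor of C5a, was at 368 and 372 CPM with DI and 381 and 383 CPM with vehicle. DI and vehicle differed by -0.046 on the log2 scale (95% interval -0.131 to 0.0403, standard error 0.035) with an adjusted p of 0.443 (edgeR), and with library size only it was -0.15 and passed (adjusted p = 0.0350). The intervals correspond to DI over vehicle ratios of 0.999 to 1.14 for C3ar1 and 0.913 to 1.03 for C5ar1. Within a library, the ratio of C3ar1 to C5ar1 in FPKM was 3.33 and 3.23 with DI and 2.90 and 3.05 with vehicle. It was higher in each DI library, and no test is given for it. A fold change as large as that of C3 lies outside the intervals of the other genes except that of Cfb. The gene of the ligand's precursor C5, Hc, had no count in any library.

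**Figure D3:**
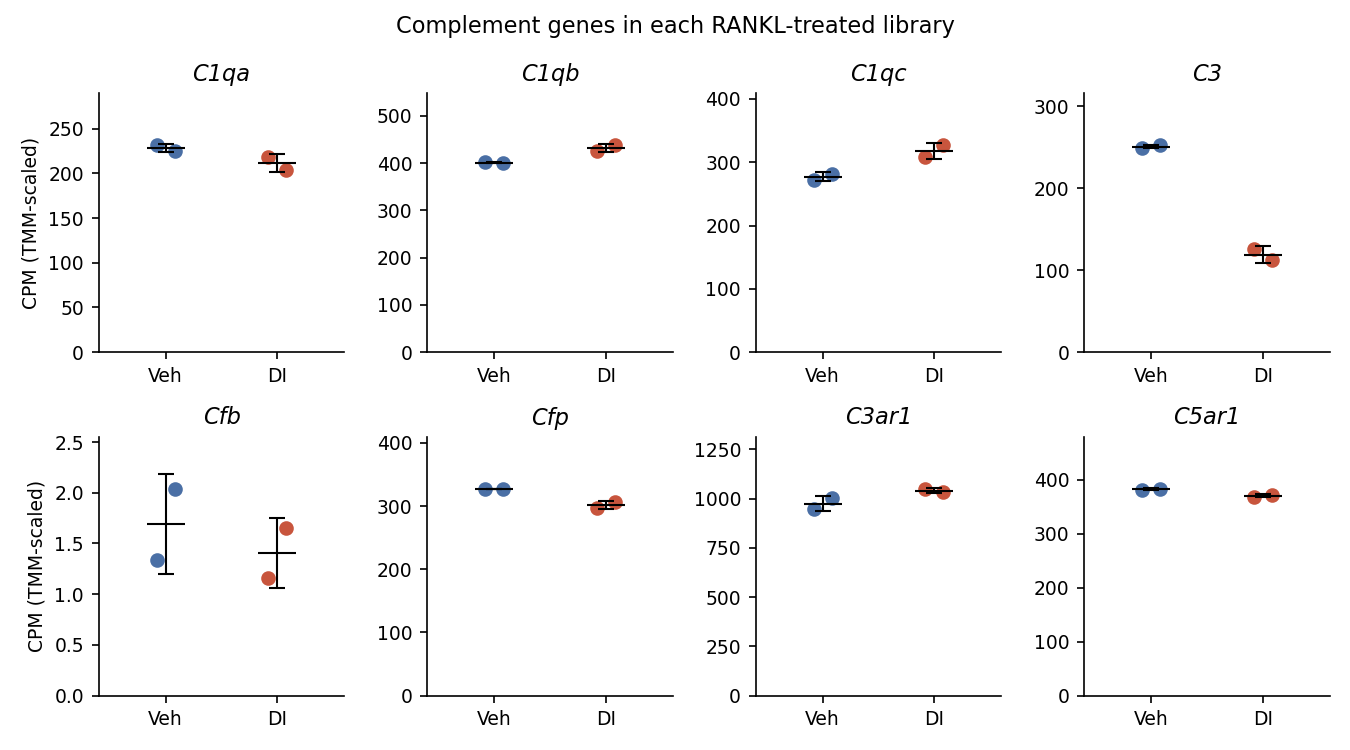
CPM (TMM-scaled) of each complement gene with vehicle and with DI (1 point per library; black lines, mean ± SD, n = 2 each; every axis starts at 0). C3 goes from 249 and 253 to 126 and 112 CPM, while the other abundant genes differ by small steps and Cfb overlaps at 1 to 2 CPM.

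The rest of the complement system was read from lists of 48 further genes. Of these, 16 had no count in any library, 16 passed the filter on low counts, and 6 of the 16 were called, all higher with DI, where 7.14% of all tested genes were called higher. Their median log2 fold change was 0.040. With RANKL+DI replicate 1 or RANKL+Veh replicate 1 left out, 3 of them were called. With library size only, 3 were called higher and 1, C1qbp, lower. Several of these further genes that act upstream of C3 had few counts. C1s1 had 7 to 10 counts per library, C1s2 0 to 6 and C2 3 to 8. Overlaps and copies were searched only for genes that passed the filter. Whether reads of C1s1, C1s2 and C2, which lies next to Cfb, were lost to other gene models was therefore not checked. C4a had 3 to 20 counts and C4b 0 to 5, and these near-identical paralogs have uncertain counts. C1ra (log2 fold change -0.30, adjusted p = 0.322) and Fcna, the gene of ficolin A (-0.44, adjusted p = 0.135), were tested and did not pass (edgeR). C1ra shares 81.6% of its transcript with C1rb, so its count is uncertain. The terminal pathway was represented by C8g alone, with 9 to 18 counts (log2 fold change 0.63, adjusted p = 0.333, edgeR), while C9 had 0 to 3 counts and the other 5 genes had none. The lectin pathway genes Masp1, Fcnb and Colec11 had at most 1 count in a library and C1rb at most 2.

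Regulators of complement keep the cascade from attacking the body's own cells. In the list of genes read under this heading, C1qbp and Cr1l were the most abundant, which does not show that each has this role. C1qbp (log2 fold change -0.22, adjusted p = 0.0663) and Cr1l (-0.069, adjusted p = 0.728) did not pass (edgeR). Cd46 (-0.15, adjusted p = 0.837), Cd55 (-0.64, adjusted p = 0.127) and Cd59a (-0.22, adjusted p = 0.398) did not pass either (edgeR). Cd55 resembles Cd55b over 51.0% of its transcript, so its count is uncertain. Cr1l resembles the pseudogene Crry-ps over 90.8% of its transcript and its difference turned positive without RANKL+DI replicate 1 or RANKL+Veh replicate 2. Cd59b had 3 to 7 counts, Clu 0 to 3, and Serping1 and Csmd1 0 to 2.

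Of the 7 further receptor genes tested, 5 rose, where 7.14% of all tested genes rose. Itgam and Itgb2, which encode the chains of complement receptor 3 for fragments of C3, rose by 0.57 (standard error 0.048, adjusted p = 0.00186) and 0.50 (standard error 0.043, adjusted p = 0.00190) on the log2 scale (edgeR). Itgam went from 994 ± 42.5 to 1473 ± 66.5 CPM and Itgb2 from 1601 ± 24.7 to 2268 ± 114 CPM (SD, n = 2 each), and both were called under all 12 alternatives run for them. Itgam shares 68.7% of its exonic bases with a second gene model, ENSMUSG00000108596, which the table also names Itgam. That row had a log2 fold change of 0.16 (adjusted p = 0.245, edgeR), so the count of the first is uncertain. Smaller increases were those of Cd93 (0.17), Lrp1 (0.20) and Calr (0.15), whose products have been linked to the binding or uptake of C1q-coated material, with adjusted p of 0.0251, 0.0267 and 0.0384 (edgeR). The calls of Cd93 and Calr were lost with any library left out and that of Lrp1 without RANKL+DI replicate 1 or RANKL+Veh replicate 1. With library size only all 3 calls were lost, at 0.065 for Cd93, 0.097 for Lrp1 and 0.045 for Calr on the log2 scale. C5ar2 and Itgax did not pass. Macrophage markers moved the same way in part, with 4 of 7 called higher and 2 lower, where 7.14% and 7.7% of all tested genes were. Their summed level was 26903 to 27812 CPM with DI against 21282 to 22086 CPM with vehicle. Most of this sum was Lyz2 alone, at 22756.5 and 23769.2 CPM with DI and 18276.3 and 17617.9 CPM with vehicle. The sum therefore describes mainly that gene. The part of these markers in the receptor results was not tested. Cr2 had 0 to 3 counts and Vsig4, a receptor of resident macrophages, 0 to 2.

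**Figure D4:**
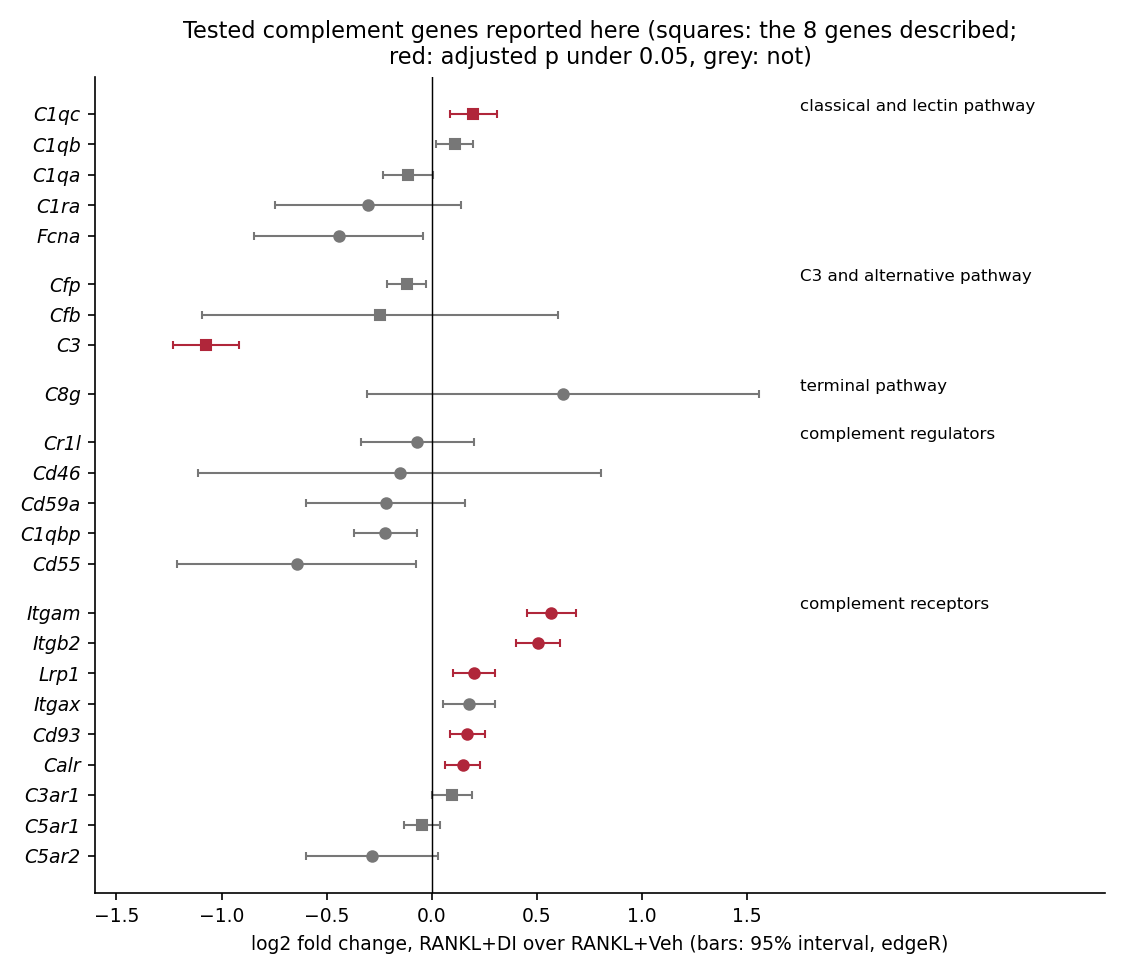
Log2 fold change (RANKL+DI over RANKL+Veh) of the complement genes reported here that passed the filter on low counts, with its 95% interval from edgeR, grouped by role (squares, the 8 genes described; circles, further genes; red, adjusted p under 0.05). C3 at -1.08 lies farthest from 0 among the genes in red, and Itgam and Itgb2 lie at 0.57 and 0.50.

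Genes that act after the anaphylatoxin receptors or are known at complement promoters were read in the same fit. Of 22 such genes, all tested, 6 rose and 3 fell, where 7.14% of all tested genes rose and 7.7% fell. With library size only 4 rose and 5 fell, beside 549 higher and 1930 lower of the 12590 genes. In receptor signalling 3 of 12 genes were called, against 14.8% of all tested genes, a share too close for these few genes to be read as a result about them. Gnai2, the gene of the main G protein subunit coupled to these receptors, rose by 0.13 (adjusted p = 0.0462) on the log2 scale, and the similar Gnai3 was at 0.12 (adjusted p = 0.188, edgeR). Of the phosphoinositide 3-kinase γ complex, the catalytic subunit gene Pik3cg rose by 0.19 (adjusted p = 0.0365) and the regulatory subunit gene Pik3r5 fell by 0.43 (adjusted p = 0.00186) on the log2 scale (edgeR). The calls of Gnai2 and Pik3cg were lost with any library left out and with library size only (0.029 and 0.090), while Pik3r5 was called under all 12 alternatives run for it.

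Of the 10 transcription factor genes, 4 rose and 2 fell, where 7.14% of all tested genes rose and 7.7% fell. Cebpb and Cebpa, of the C/EBP family known at the C3 promoter, rose by 0.80 (standard error 0.045, adjusted p = 5.80e-04) and 0.75 (standard error 0.11, adjusted p = 0.00898) on the log2 scale (edgeR). Irf8 rose by 0.45 (adjusted p = 0.00301, edgeR). Nr1h3, the gene of the oxysterol receptor LXRα, fell by 0.57 (adjusted p = 0.0191, edgeR). The call of Nr1h3 was lost without RANKL+DI replicate 2 (-0.52) or RANKL+Veh replicate 2 (-0.49). Spi1, which encodes PU.1, was at -0.040 (adjusted p = 0.586, edgeR). C3 and its known C/EBP activators thus moved in opposite directions in the same libraries, and no relation between them was tested. Cebpb overlaps Tmem189 on the opposite strand over 20.7% of its exonic bases and no source says that reads were counted by strand. The count of Cebpb is therefore uncertain.

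The libraries held 16085692 to 19403480 counts, of which the 8 genes took 0.269% to 0.298%. Macrophage markers were present in all libraries, while the summed markers of B cells, T and NK cells, mast cells and basophils, dendritic cells and erythroid cells stayed below 1 CPM in each group, with Cd3e, Ms4a2, Siglech and Hba-a1 at 0. Neutrophil markers summed to 10.3 to 11.1 CPM with DI and 9.23 to 10.4 CPM with vehicle, with Ly6g at 0.

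**Figure D5:**
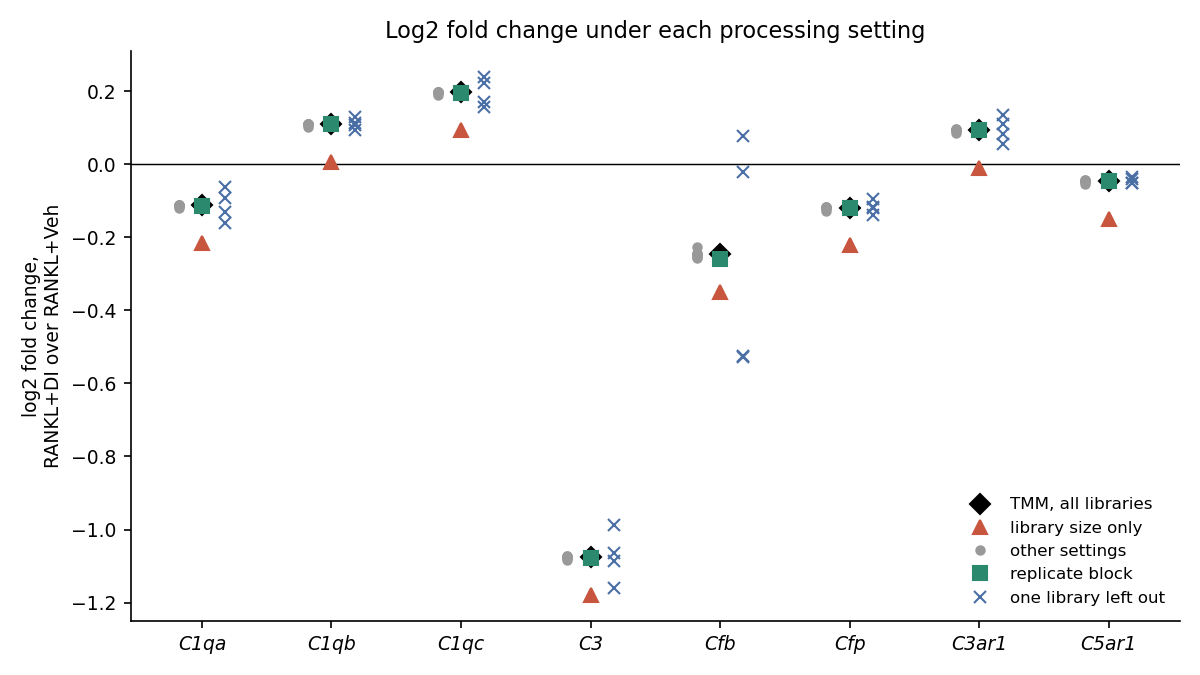
Log2 fold change (RANKL+DI over RANKL+Veh) of each complement gene under the settings tried (black diamonds, TMM with all libraries; red triangles, library size only; green squares, replicate block; blue crosses, 1 library left out; grey, other settings). C3 stays between -1.18 and -0.99, C3ar1 crosses 0 only with library size only, and Cfb ranges from -0.53 to 0.077 when single libraries are left out.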

How the data were processed

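RNA of BMMs was measured in 4 libraries, grouped by their labels. Libraries were made from messenger RNA (VAHTS kit) and read as pairs. The values deposited by the authors are raw counts per gene and, beside them, FPKM, which equal the count scaled by 1 length per gene and by each library's total. The submitters' processing notes list GRCm38 and mm10. The aligner, counting program and annotation release are not given in the sources used here. A second table with the same values and added annotation was not used.

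Counts were tested in R 4.3.3 with edgeR 4.0.16 (TMM factors, default filter, quasi-likelihood test with the condition as its only term, Benjamini-Hochberg adjustment over 12590 genes). With 2 residual degrees of freedom, each standard error was derived from the fold change and its F value. At this depth, 3 counts are 0.16 to 0.18 CPM. Replicates differed beyond sampling noise (chi-square per degree of freedom 7.57 and 7.74) and were kept separate. Alternatives were other factors (DESeq2's, upper quartile, none), other filters, DESeq2 1.42.0, limma-voom (limma 3.58.1), glmTreat, a replicate block, TPM and each library left out. The steps were tested on simulated data.

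The genes and lists were chosen with earlier results of these data known. Named are the 8 genes and, from 7 lists written from general knowledge, every called gene, the 2 most abundant of each list and those with few counts. Some genes that this rule would name, and 1 of the motifs searched, are not reported here. From 9 marker lists, summed levels are given. Named from them are markers that had no count and Lyz2, which made up most of the macrophage sum. Gene positions come from the deposited table, exons and overlaps from GENCODE M21, copies from BLAST+ 2.17.0 (at least 95% identity over 20% of the transcript), and promoters from RefSeq. No gene is named for a similar pattern, since 4 libraries do not separate patterns.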

Additional observations from a re-analysis of the deposited data

How the results depend on the processing

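C3 kept its direction and its call under all 13 alternatives, with a log2 fold change between -1.18 and -0.99. The number of genes called in all was 1868 and within 1.5 times of it except when a vehicle library was left out (1087 to 1394 over the 4 libraries left out). The 8 genes gave 2 calls, 4 with library size only and 1 to 2 with a library left out. The further complement genes gave 6 calls, 3 with the replicate block, which ended those of Cd93, Lrp1 and Calr (adjusted p = 0.0503, 0.0570 and 0.0692, edgeR), and 3 to 5 with a library left out.

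With library size only, C1qa (-0.22), C5ar1 (-0.15) and Cfp (-0.22) were called, C1qc (0.093) was not, and C3ar1 was at -0.0092. By construction this setting leaves out the TMM factors (0.963 to 0.967 with DI, 1.04 with vehicle). Of the 4 libraries left out, the call of C1qc was also lost in 3 (0.156 to 0.24 over all 4). In glmTreat at 0.5 C1qc could not be called, because its estimate of 0.197 lies below that threshold. With single libraries left out Cfb ranged from -0.53 to 0.077 and Cr1l from -0.21 to 0.067 (0.020 without RANKL+Veh replicate 2). The cause was not tested. In TPM, the DI over vehicle ratio of the level per length was 0.977 for C1qb, 0.877 for C5ar1 and 0.834 for Cfp, against 1.004, 0.902 and 0.857 in FPKM.

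Same-numbered libraries did not deviate together (correlation -0.030 across genes), so the numbers were not taken as pairs. The replicate block gave 1389 calls in all and the same 2 calls among the 8 genes, and it ended the calls of Gnai2 and Pik3cg. Depth limits Cfb and the genes under 20 counts, for which only large differences could have been detected.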
